A study of Mus musculus with 4 samples.

Results

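The wells described here are the pericyte wells of mouse hearts, the wells of a single-well RNA sequencing experiment whose RNA was rich in 8 genes that mark pericytes. A well entered the class when Rgs5, Kcnj8, Abcc9, Vtn, Notch3, Pdgfrb, Cspg4 and Higd1b together made up at least 0.3% of its UMIs outside mitochondrial and haemoglobin genes and at least 3 of the 8 were detected. UMIs are distinct tagged RNA molecules, and those outside mitochondrial (mt-) and haemoglobin (Hba-, Hbb-) genes are called other UMIs below. Of 3990 kept wells, those with at least 10000 UMIs and 300 genes, 151 met the rule. Of these, 130 lay in the non-cardiomyocyte (NCM) fraction and 21 in the cardiomyocyte (CM) fraction.

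The hearts came from C57BL/6 mice, 2 wild-type (WT1 and WT2) and 2 labelled as lacking Mst1/2 (KO1 and KO2), the kinases that Stk4 and Stk3 encode. Low-speed spins parted cardiomyocytes from the other cells, and each of the 4 chips held the wells of 1 genotype and 1 fraction. Genotype and chip therefore cannot be told apart within a fraction, and any difference between WT and KO below is equally a difference between 2 chips. The sources used here give neither age, allele, deleted exons, the cells in which the genes were deleted nor whether the hearts were injured. The animal is the replicate throughout, and a two-sided exact permutation test of 2 against 2 animals cannot go below p = 0.333.

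Pericytes are mural cells that share the basement membrane of capillaries with the endothelium, and they are dense in the heart. Endothelial PDGF-B recruits them through the receptor PDGFRB, and Notch3 on their surface answers to endothelial Notch ligands. Pericytes of the heart carry the vascular ATP-sensitive potassium channel, a complex of the pore KIR6.1 (Kcnj8) and the sulfonylurea receptor SUR2 (Abcc9), by which the energy state of the cell acts on membrane potential. Their soluble guanylate cyclase makes cyclic GMP in response to nitric oxide, and contractile tone along small vessels follows from such signals.

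Rgs5, a brake on G protein signalling, was the leading member of the class. Its level, in counts scaled to a common total of other UMIs (CPM), in the NCM pericyte wells of WT1, WT2, KO1 and KO2 was 4565, 4261, 3432 and 3104 CPM. In the other NCM wells of the same animals it was 83.9, 164, 342 and 359 CPM. It supplied 44.8% of the UMIs of the 8 genes, was detected in 127 of 130 pericyte wells and reached 10 UMIs in 117. Detection alone set little apart, because Rgs5 UMIs also lay in 51.0, 59.1, 69.7 and 77.7% of the other NCM wells and in 29.6 to 53.1% of the other CM wells. The median number of other UMIs per well was 40769, 47763, 26230.5 and 40453 in the pericyte wells and 53351, 63620.5, 24361 and 44107 in the other NCM wells, in the order WT1, WT2, KO1, KO2, which holds for every run of values below. All 8 levels are what the rule selected on, so they are given as a description with no test.

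Higd1b, a small hypoxia-inducible mitochondrial membrane protein family member, stood at 2063, 2169, 1524 and 1642 CPM against 18.2, 16.7, 45.7 and 43.3 CPM in the other NCM wells. Of the 2 subunit genes of the potassium channel, Abcc9 was 1539.8 and 1104 CPM in the WT animals and 236 and 344 CPM in the KO animals, against 2.21, 9.04, 24.2 and 88.2 CPM in the other wells. Its levels in the 2 genotypes did not overlap. Kcnj8 was 396, 1033, 229 and 468 CPM against 1.72, 6.35, 11.1 and 22.3 CPM, and there the KO2 value lay above the WT1 value. UMIs of both subunits lay together in 46 wells, out of 66 with Kcnj8 and 73 with Abcc9. Vtn, the secreted adhesion protein vitronectin, stood at 1633, 613, 213 and 169.8 CPM, higher in both WT animals than in either KO animal, with 2.78, 8.87, 14.6 and 6.82 CPM in the other wells. The receptor gene Pdgfrb was even across animals, at 600.1, 794, 622 and 604 CPM, against 36.9 to 53.3 CPM in the other wells. Notch3 (78.1, 153, 172 and 104 CPM) and Cspg4, which encodes the NG2 proteoglycan (52.7, 128, 54.8 and 64.8 CPM), were the lowest of the 8, and their genotypes overlapped.

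**Figure D1:**
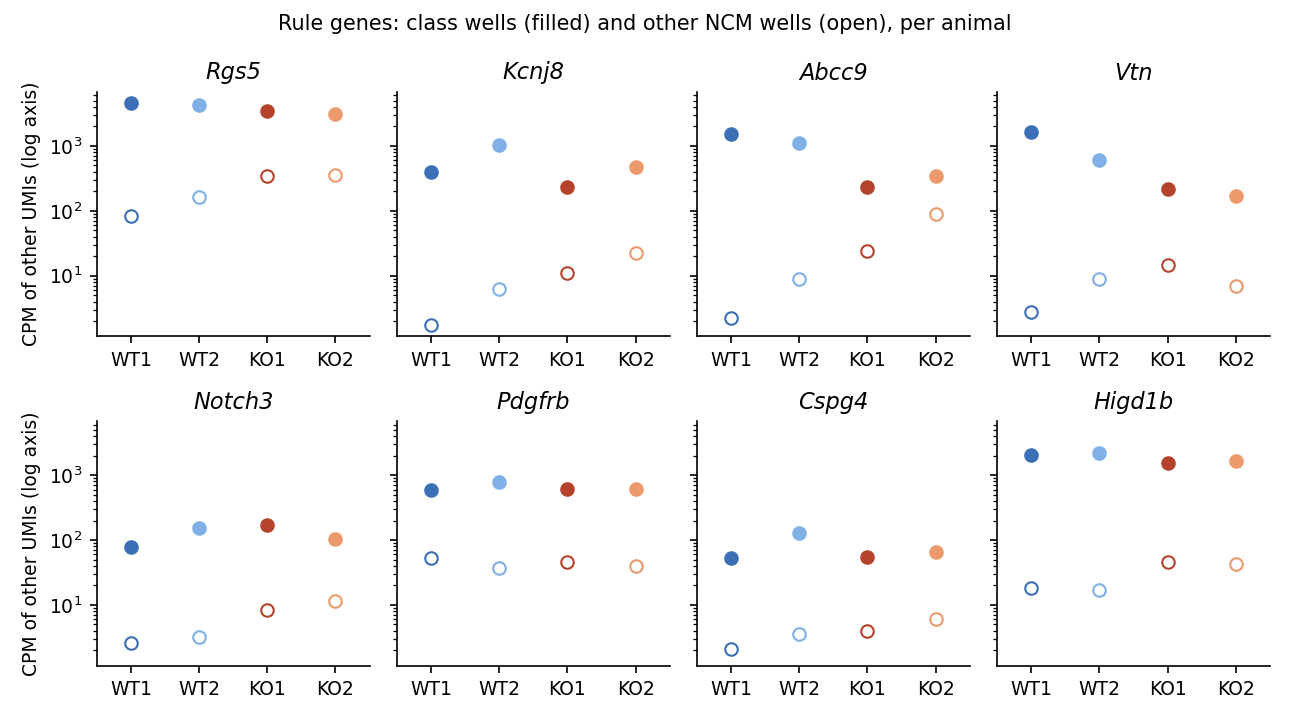
Level of each of the 8 rule genes per animal, in CPM of other UMIs on a log axis, with pericyte wells as filled points and the other NCM wells as open points. Rgs5, Higd1b, Abcc9 and Vtn were lower in both KO animals than in both WT animals within pericyte wells, while Pdgfrb was nearly level, and the open points of Rgs5, Higd1b, Kcnj8, Abcc9, Notch3 and Cspg4 are higher in KO than in WT.

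The promoters of Rgs5, the leading gene, of the channel genes Kcnj8 and Abcc9 and of Vtn are shown, and TEAD and RBPJ motifs were searched because the series concerns Hippo kinases, which act through TEAD factors, and because Notch3 is itself a rule gene and Notch receptors act through RBPJ. On mm10, in the GENCODE annotation, Rgs5 lies at chr1:169655501-169695813 on the plus strand and Vtn at chr11:78499091-78502324 on the plus strand. Kcnj8 (chr6:142564837-142571614) and Abcc9 (chr6:142587862-142702315) are neighbours on the minus strand, with 16247 bases between them. The stretches below run from 250 bases before to 50 bases after the annotated start, 5′ to 3′ on the strand of the gene, as given by RefSeq on GRCm38.p6, a patch release of the same build. Capitals mark the core of the TEAD motif, GGAATG, and of the RBPJ motif, TGGGAA, on either strand. The motifs share 4 letters and can overlap as TGGGAATG.
Rgs5: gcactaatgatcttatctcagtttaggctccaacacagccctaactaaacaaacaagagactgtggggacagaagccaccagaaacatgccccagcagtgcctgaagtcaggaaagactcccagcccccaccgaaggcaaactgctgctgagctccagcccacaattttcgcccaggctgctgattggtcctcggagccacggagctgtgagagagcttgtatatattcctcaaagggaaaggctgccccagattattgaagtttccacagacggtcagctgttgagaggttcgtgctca
Kcnj8: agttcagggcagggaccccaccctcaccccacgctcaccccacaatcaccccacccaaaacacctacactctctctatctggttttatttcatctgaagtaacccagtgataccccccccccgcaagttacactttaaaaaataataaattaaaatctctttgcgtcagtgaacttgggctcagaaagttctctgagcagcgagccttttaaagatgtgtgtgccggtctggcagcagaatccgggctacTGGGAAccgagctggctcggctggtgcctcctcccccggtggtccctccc
Abcc9: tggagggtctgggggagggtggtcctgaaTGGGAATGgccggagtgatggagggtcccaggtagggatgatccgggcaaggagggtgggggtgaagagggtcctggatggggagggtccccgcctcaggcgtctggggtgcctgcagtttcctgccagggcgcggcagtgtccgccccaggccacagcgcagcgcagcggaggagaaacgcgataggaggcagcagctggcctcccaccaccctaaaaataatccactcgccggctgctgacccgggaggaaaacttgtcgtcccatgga
Vtn: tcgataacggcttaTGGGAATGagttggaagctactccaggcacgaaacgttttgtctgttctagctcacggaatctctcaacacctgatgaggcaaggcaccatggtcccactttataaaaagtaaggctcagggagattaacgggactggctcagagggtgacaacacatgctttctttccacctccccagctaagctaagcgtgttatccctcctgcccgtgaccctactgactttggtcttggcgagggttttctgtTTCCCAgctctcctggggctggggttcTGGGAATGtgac
The Vtn stretch, chr11:78498870-78499169, held 2 TEAD and 3 RBPJ matches, of which 2 pairs overlapped. The Abcc9 stretch, chr6:142702225-142702524, held 1 of each, overlapping, and the Kcnj8 stretch, chr6:142571565-142571864, held 1 RBPJ match and no TEAD match. No match lay in the Rgs5 stretch, chr1:169655251-169655550, nor in the stretches of Notch3, chr17:32166841-32167140, and Cspg4, chr9:56864854-56865153, which are not shown. Stretches of the rule genes Pdgfrb and Higd1b are not given here. Of 32851 promoters of the same length, 14.7% held at least 1 TEAD match and 1.36% at least 2. For RBPJ, 25.6% held at least 1 match and 3.79% at least 2. These are letter matches only, and binding was not measured in the data used here.

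The class was broad rather than sharply bounded. In the NCM wells that met the rule, the median summed share of the 8 genes was 0.722% of other UMIs in WT1, 0.589% in WT2, 0.609% in KO1 and 0.461% in KO2. The highest well of each animal held 3.004, 4.46, 1.69 and 2.19%. Of the 130 wells, 46 had only 3 of the 8 genes, 27 had 4, 20 had 5, 25 had 6, 9 had 7 and 3 had all 8. The 5 members nearest the limit, in either fraction, lay between 0.305 and 0.323%, and the 5 nearest wells below it between 0.273 and 0.295%. Another 90 wells were over the limit but had fewer than 3 of the genes, and 88 of these were NCM wells.

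**Figure D2:**
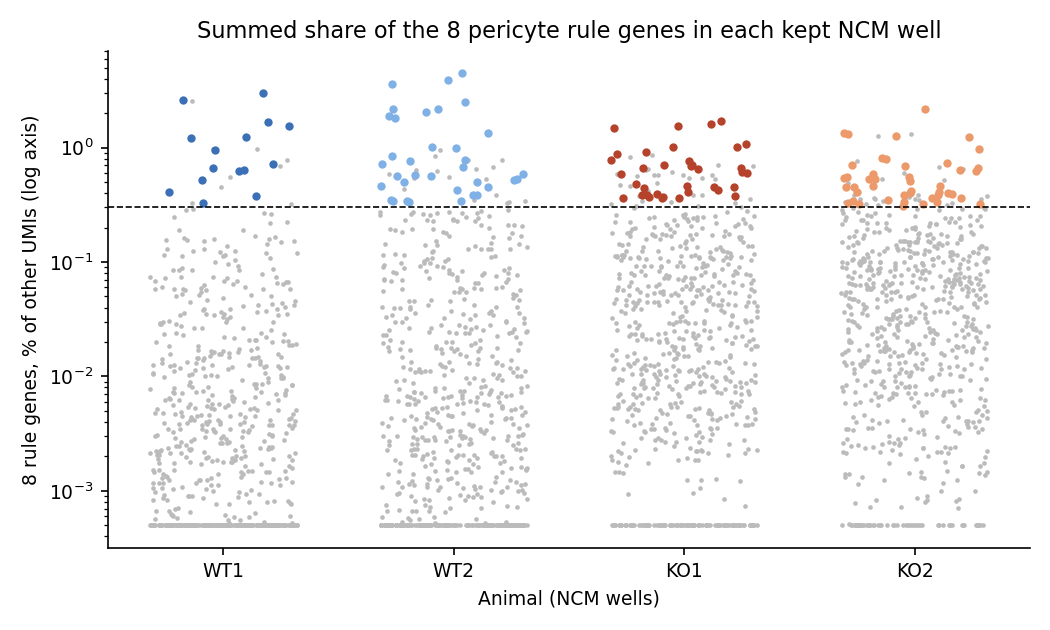
Summed share of the 8 rule genes in every kept NCM well, as a percent of other UMIs on a log axis, by animal, with pericyte wells coloured, other wells grey and the 0.3% limit dashed. Wells under 0.0005% (522 wells) are drawn at that level, and the cloud below the limit sits higher in KO1 and KO2 than in WT1 and WT2.

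Summed over wells, the 8 genes made up 1.09 and 1.03% of other UMIs in the WT pericyte wells and 0.648 and 0.650% in the KO pericyte wells. In the other NCM wells they made up 0.0167 and 0.0249% in WT and 0.0495 and 0.0577% in KO. Pericyte wells of the KO chip thus held a smaller share of the marker RNA and the remaining wells of that chip a larger one. The NCM pericyte wells held 1116888, 3269143, 3667937 and 6621584 UMIs in all, of which 986482, 2569048, 1112592 and 3116308 were other UMIs. RNA from more than 1 cell, or free RNA, can lie in a well, so fewer pericytes and less RNA per pericyte cannot be told apart in these sums. Of the 151 wells, 64 (42.4%) had a barcode that was also a kept well of another chip, against 45.8% of all kept wells, and 0 shared a barcode with a member on another chip. Scrublet called 33 doublets in all kept wells and 0 of the 151, and called wells were left in.

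Markers of other cell types were present in nearly every member. Of the 130 NCM pericyte wells, 2 were below 0.3% of other UMIs for each of the main other sets. These were endothelial, fibroblast, cardiomyocyte, macrophage, neutrophil, T or NK cell, B cell, mesothelial and Schwann markers. Smooth muscle, platelet, endocardial and lymphatic markers were not part of that count. Smooth muscle markers passed 0.3% in 12 of the 130 wells (9.23%, against 2.31% of other NCM wells). Platelet markers did so in 15 (11.5%, against 17.8%). Fibroblast markers summed to 0.532, 0.816, 0.847 and 1.28% of other UMIs, below the 1.82, 1.45, 1.33 and 1.3998% of the other NCM wells. Macrophage markers summed to 0.277 to 0.498% against 0.450 to 1.05%, lower in each animal. Counted by well the contrast was small. Fibroblast markers passed 0.3% in 76.9% of pericyte wells against 73.6% of other NCM wells, and macrophage markers in 48.5% against 56.2%. Neutrophil markers summed to 0.0797, 0.0532, 0.0182 and 0.0805% against 0.184, 0.0968, 0.0793 and 0.0788%, lower in every animal but KO2. Cardiomyocyte markers summed to 0.154, 0.305, 0.325 and 0.792% against 0.115, 0.312, 0.258 and 0.618%, and 41 of 44 KO2 pericyte wells passed 0.3% for them. In KO1 and KO2 the fibroblast sums exceeded those of the 8 rule genes (0.648 and 0.650%), and in KO2 the cardiomyocyte sum did too. The pericyte name of these wells therefore rests on the rule. T or NK cell, B cell, mesothelial and Schwann markers were scarcer still, the highest sum being 0.0278% for T or NK cell markers in WT2, and Cd3e and Ncr1 were at 0 in the pericyte wells of all 4 animals. The 6 smooth muscle markers summed to 0.0818, 0.0901, 0.135 and 0.164%, above the 0.0578, 0.0463, 0.0463 and 0.0604% of the other NCM wells. Of the 6, Cnn1, a calponin typical of contractile smooth muscle, was at 0 in all animals but KO1. Of 27 NCM wells that met a like rule for smooth muscle, 6 were also pericyte wells.

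In the CM fraction the data went against the label. The 21 CM wells that met the rule held cardiomyocyte markers at 4.01, 7.44, 2.91 and 4.66% of other UMIs, below the 5.68, 7.80, 2.94 and 7.55% of the remaining CM wells. All 21 passed 0.3% for those markers. They are therefore best called cardiomyocyte-fraction wells with rule genes, and everything that follows is about the 130 NCM wells unless CM is named. Rgs5 was 1627, 2863, 2007 and 1914 CPM in them. They numbered 4 of 210, 4 of 274, 10 of 264 and 3 of 385 wells, too few for a test between genotypes.

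Outside the rule, 168 of the 1412 genes with at least 50 CPM in the pericyte wells of every animal were higher there than in the other NCM wells in all 4 animals, and 19 were at least 2-fold higher in all 4. The list depended on the wells used. Of the 19, 13 stayed at a marker threshold of 0.5%, 9 without wells of at least 0.3% endothelial markers and 3 in CM wells. The values below are a description of how the class looks, since the wells were picked on the same contrast. Mylk, the myosin light chain kinase of smooth muscle contraction, stood at 170.3, 348, 199 and 318 CPM against 8.43, 13.2, 33.6 and 32.5 CPM. Rgs4, a second RGS brake on G protein signalling, stood at 233, 177, 223 and 123 CPM against 5.19, 3.98, 15.9 and 19.1 CPM. Both were higher in every animal, by log2 ratios of 2.26 to 3.95 for Mylk and 2.19 to 4.0003 for Rgs4 (pseudocount 10 CPM).

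Gucy1a1, the alpha subunit of soluble guanylate cyclase, was 1028 and 706 CPM in WT pericyte wells and 165 and 194 CPM in KO pericyte wells, against 16.03 to 37.8 CPM elsewhere. The beta subunit Gucy1b1 ran in parallel at 264, 280.3, 42.2 and 30.2 CPM, against 23.7, 29.9, 12.5 and 7.60 CPM. Both subunits were thus at a lower level in both KO animals than in both WT animals, while remaining above the other wells of the same chip. In those other wells Gucy1b1 was also lower in both KO animals, whereas the genotypes overlapped for Gucy1a1. Further genes of vessel wall signalling in this group were S1pr3, a receptor for sphingosine 1-phosphate (261, 145, 148 and 64.8 CPM against 11.0 to 21.4 CPM), and Aoc3, a vascular amine oxidase (189, 80.6, 92.6 and 161 CPM against 4.57 to 23.4 CPM). Mcam, a cell adhesion molecule of mural and endothelial cells, was 166, 255, 362 and 238 CPM against 24.4, 34.5, 155 and 96.0 CPM, with the 2 genotypes overlapping.

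Sncg, gamma-synuclein, was 718, 536, 484 and 235 CPM against 19.2 to 70.7 CPM in the other wells. Colec11, a secreted collectin, was 1007, 712, 106 and 713 CPM against 6.04 to 34.9 CPM, so that KO1 alone was low. Art3, an ADP-ribosyltransferase family member, was 418 and 596 CPM in WT and 113 and 50.7 CPM in KO against 14.2 to 49.4 CPM. Casq2, a calcium-binding protein of the sarcoplasmic reticulum, was 289.9, 301, 214 and 81.8 CPM against 4.07 to 28.2 CPM. The remaining genes of the 20 were Klhl23, Arap2, Mfge8, Trib2, Errfi1, Cystm1, Unc50, Sema6d, G0s2 and Egln1. Levels of several rested on few wells: 55.3% of the Klhl23 UMIs came from 1 well, against 9.84% for Mfge8, which was detected in 94 of 130 wells. At the other end, Il1r2 and S100a8, genes of neutrophils, were lower in pericyte wells in all 4 animals. S100a8 was 12.2, 26.9, 72.8 and 24.7 CPM against 719, 341, 263 and 258 CPM.

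**Figure D3:**
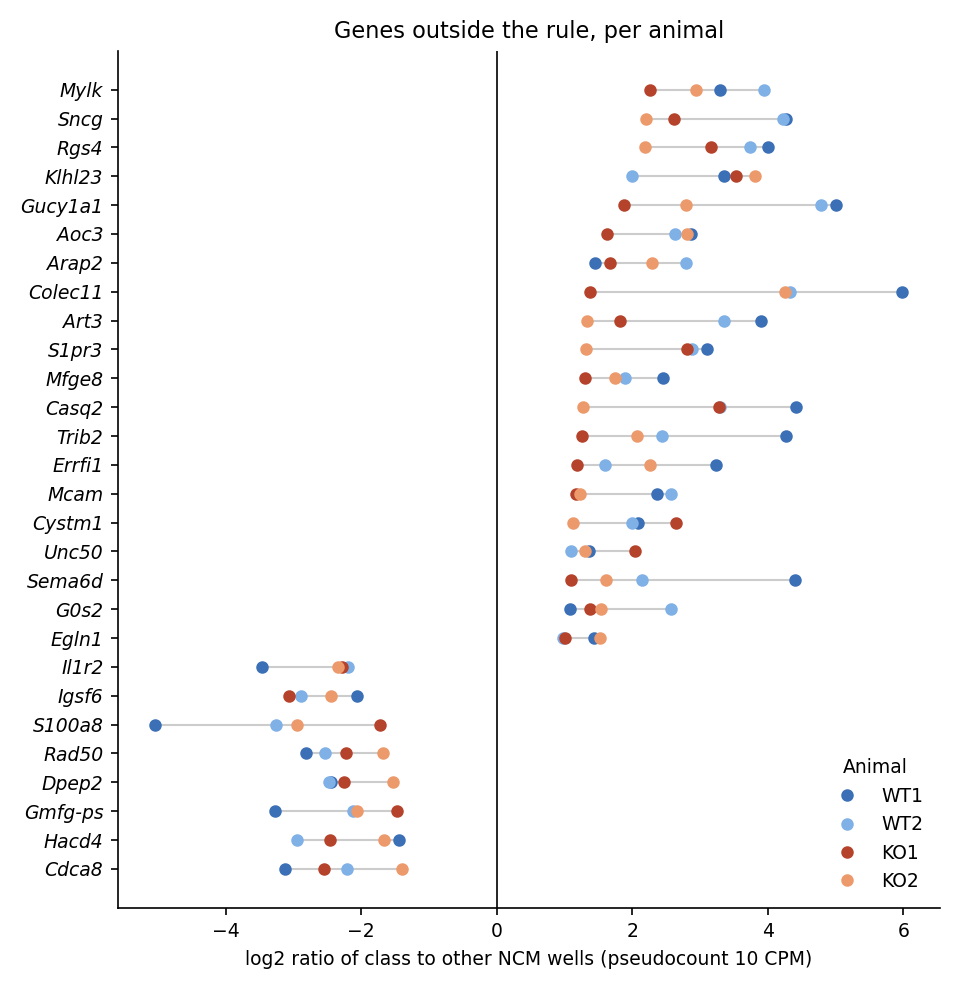
Log2 ratio of pericyte wells to other NCM wells of the same animal (pseudocount 10 CPM) for the 20 genes with the highest smallest ratio and the 8 with the lowest largest ratio, 1 point per animal. Mylk, Sncg and Rgs4 keep a ratio above 2 in every animal, while Gucy1a1, Art3 and Casq2 spread over a wide range. Both KO points lie below both WT points for each of these genes and for several others, such as S1pr3 and Mcam. For Casq2 the gap is small, 3.27 in KO1 against 3.29 in WT2.

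Many pericyte genes outside the rule were higher with the class. Of 35 such genes, 29 had a mean of at least 10 CPM over pericyte and other wells, and 17 of the 29 were higher in pericyte wells in all 4 animals and 0 lower, where 3.84% of 8681 genes were higher and 15.2% lower. Among the 17 were Cald1, caldesmon (1683, 1702, 1782 and 1120.2 CPM against 609.7 to 751 CPM), Steap4, a metalloreductase (371, 159, 66.5 and 99.2 CPM against 9.22 to 31.7 CPM), P2ry14, a UDP-sugar receptor (171, 89.9, 25.2 and 42.0 CPM against 0.671 to 3.84 CPM), and Agtr1a, the angiotensin II receptor (54.7, 80.2, 18.9 and 28.9 CPM against 1.89 to 11.0 CPM). Of 14 vasoactive receptors and cyclic GMP genes at that level, 7 were higher in all 4 animals and 0 lower. Of 6 potassium and calcium channel genes outside the rule, 4 were higher, among them the calcium-activated chloride channel Ano1 (174, 21.0, 129 and 6.42 CPM against 0.0438 to 3.51 CPM).

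Of all 8681 genes at that level, 3.84% were higher in all 4 animals and 15.2% lower, to be set beside the counts here. Those for basement membrane (6.25% higher), fibrillar matrix (12.5% lower) and Hippo core genes (8.33% lower) were not far from these shares. Contractile genes leaned higher. Of 14 at that level, 5 (35.7%) were higher in all 4 animals and 0 lower, and Acta2, smooth muscle actin, was 562, 540.3, 1027 and 1027 CPM against 475, 338, 311 and 437 CPM. Of 14 genes of PDGF and Notch signalling, 2 were higher in all 4 and 0 lower. The Notch target Heyl was 60.8, 317, 27.9 and 38.8 CPM against 10.1 to 25.9 CPM, with 47.5% of its UMIs in 1 well. Among basement membrane genes 1 of 16 was higher, Col4a1, the type IV collagen chain, at 739, 744, 1335 and 1261 CPM against 316, 384, 863 and 758 CPM. No fibrillar collagen or matrix gene of 16 was higher and 2 were lower. Of 17 chemokine and adhesion genes 0 were higher and 4 lower, among them Ccl2 (587, 647, 746 and 809 CPM against 2698, 2886, 1687 and 2859 CPM). None of 12 Hippo core genes and none of 7 leukotriene genes was higher in all 4 animals, and 1 and 2 of them were lower.

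The wells met the rule at a similar rate in 3 of the 4 animals. They were 15 of 692 NCM wells in WT1 (2.17%, exact Clopper-Pearson interval at 95% 1.22 to 3.55%), 35 of 703 in WT2 (4.98%, 3.49 to 6.86%), 36 of 715 in KO1 (5.03%, 3.55 to 6.90%) and 44 of 747 in KO2 (5.89%, 4.31 to 7.83%). The intervals cover counting error only. The mean share was 3.57% ± 1.99 (SD, n = 2) in WT and 5.46% ± 0.605 (SD, n = 2) in KO, and a two-sided exact permutation test gave p = 0.333, the smallest it can give. WT1 was the low animal, and WT2 and KO1 were nearly equal. With every well thinned to 10000 other UMIs, which left out 23, 38, 106 and 51 shallower wells, the shares were 2.09, 4.21, 4.11 and 4.60%, with exact p = 0.667. Among wells under 30% mitochondrial UMIs the order turned, at 2.33, 4.91, 0 and 2.5%, with 0 of the 36 pericyte wells of KO1 and 4 of the 44 of KO2 under that limit.

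Mitochondrial RNA differed widely between the pericyte wells of the 2 NCM chips. It made up 11.6, 21.1, 59.6 and 40.5% of all UMIs (exact permutation p = 0.333, two-sided), and the same split held in the other NCM wells, at 7.40, 10.9, 58.0 and 36.2%. Haemoglobin RNA was 0.0954 and 0.289% against 10.1 and 12.4% of all UMIs, with 1.20, 3.52, 4.17 and 11.9% in the other wells. The haemoglobin came from part of the wells: 12 of 36 in KO1 and 18 of 44 in KO2 held at least 10% haemoglobin UMIs and none in WT1 or WT2, and the medians over wells were 0.0732, 0.174, 0.490 and 3.22%. Both kinds of RNA are left out of the CPM values given here. Their part in the differences between genotypes below was not tested, save where values without the haemoglobin-rich wells are given.

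The share of contractile genes, 20 genes such as Acta2 and Myh11, was 0.309 and 0.353% of other UMIs in WT pericyte wells and 0.326 and 0.522% in KO pericyte wells (exact permutation p = 0.667, two-sided). In the other NCM wells it was 0.148, 0.230, 0.177 and 0.267%, below the pericyte wells of each animal. By the median well it was 0.328, 0.235, 0.1003 and 0.420% in pericyte wells and 0.0611, 0.0897, 0.117 and 0.228% in the other wells, so that KO1 pericyte wells were lower there. Endothelial markers were 0.745, 0.455, 0.725 and 0.289% of other UMIs (exact permutation p = 0.667), against 0.127, 0.295, 0.551 and 0.269% in the other NCM wells. Wells with at least 0.3% of them were 3 of 15, 15 of 35, 27 of 36 and 26 of 44. The median well held 0.0993 and 0.216% in WT and 0.451 and 0.395% in KO, so that the order of genotypes turned between the summed share and the median. In the other NCM wells the median was 0.0320 and 0.0976% in WT and 0.513 and 0.226% in KO. The higher median in KO was thus not particular to pericyte wells.

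**Figure D4:**
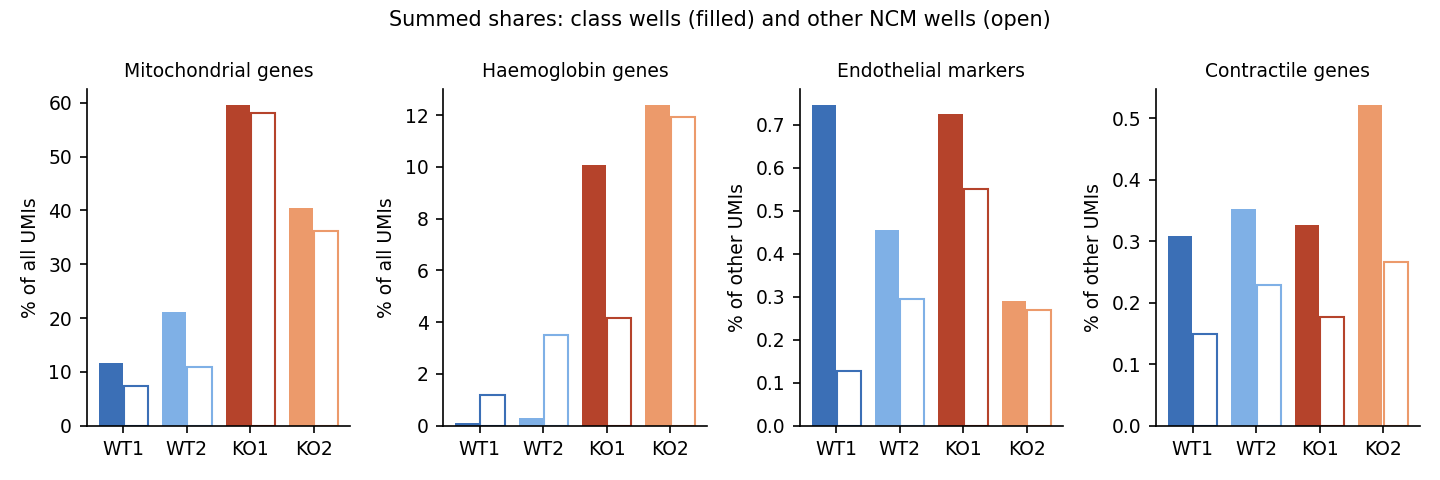
Share of mitochondrial and haemoglobin genes (percent of all UMIs) and of endothelial markers and contractile genes (percent of other UMIs), summed over the pericyte wells (filled bars) and the other NCM wells (open bars) of each animal. The mitochondrial and haemoglobin bars of pericyte wells are higher in KO1 and KO2 than in WT1 and WT2, and the bars of the other 2 panels overlap between genotypes.

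Between genotypes, no gene passed the test in the pericyte wells. Sums per animal over 8530 genes were compared with edgeR's quasi-likelihood test with Benjamini-Hochberg adjustment at 0.05, and 0 genes (0%) were called. The common dispersion was 1.05, which is large, and the class rested on 15 to 44 wells an animal. At an unadjusted p under 0.05 there were 350 genes higher (4.1%) and 219 lower (2.57%) in KO. DESeq2 called 113 genes higher and 72 lower on the same sums, and edgeR called 29, 142, 13 and 7 genes when WT1, WT2, KO1 or KO2 was left out, where the lone animal is assumed to vary like the other genotype. The values below are therefore differences between these 4 animals that did not pass, given with their unadjusted p from edgeR, and the smallest adjusted p of any gene was 0.254.

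Pericyte genes outside the rule leaned to lower levels in the KO animals. Of the 35, 27 passed the filter on low counts, 23 had a negative log2 difference, and the median was −1.64, where the median of all 8530 genes was 0.01. In 14 of the 27 (51.9%) both KO animals lay below both WT animals, against 16% of all genes, and in 1 (3.70%) both lay above, against 20.2%. The filter keeps a gene that is high in only 1 genotype, so these counts describe the list and do not test it. The median stayed between −1.82 and −1.09 under 15 other settings, among them leaving out each animal and leaving out the haemoglobin-rich wells (−1.73). The summed share of the 8 rule genes was also lower in KO pericyte wells, but the wells were selected on that share, so it adds no support. The lean of the list stands beside the higher median endothelial share of KO wells, in pericyte and other wells alike, whose part in it was not tested.

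The 4 members of the list at an unadjusted p under 0.05 included both subunits of soluble guanylate cyclase. Gucy1a1 differed by log2 −2.47 (SE 0.626, unadjusted p = 0.00283) and Gucy1b1 by log2 −3.11 (SE 1.01, unadjusted p = 0.0119), with an edgeR adjusted p = 0.679 for each. UMIs of Gucy1a1 lay in 7 of 15 and 16 of 35 WT wells and in 6 of 36 and 9 of 44 KO wells. Without the haemoglobin-rich wells Gucy1a1 was 91.2 and 224 CPM and Gucy1b1 3.26 and 34.4 CPM in KO1 and KO2, again below the WT levels. In wells under 0.3% endothelial markers Gucy1a1 was 1207 and 279 CPM in WT and 262 and 237 CPM in KO, so that WT2 came close to the KO animals there, and Gucy1b1 was 132 and 249.9 CPM in WT and 10.1 and 13.3 CPM in KO. Art3 (log2 −2.84, SE 0.799, unadjusted p = 0.00535) and the proteoglycan Aspn, asporin (2086, 497, 175 and 285 CPM, log2 −2.70, SE 0.758, unadjusted p = 0.00529), were the other 2. Cald1, at the highest mean level of the list, differed by log2 −0.43 (SE 0.417) and Colec11 by log2 −1.22 (SE 0.831).

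**Figure D5:**
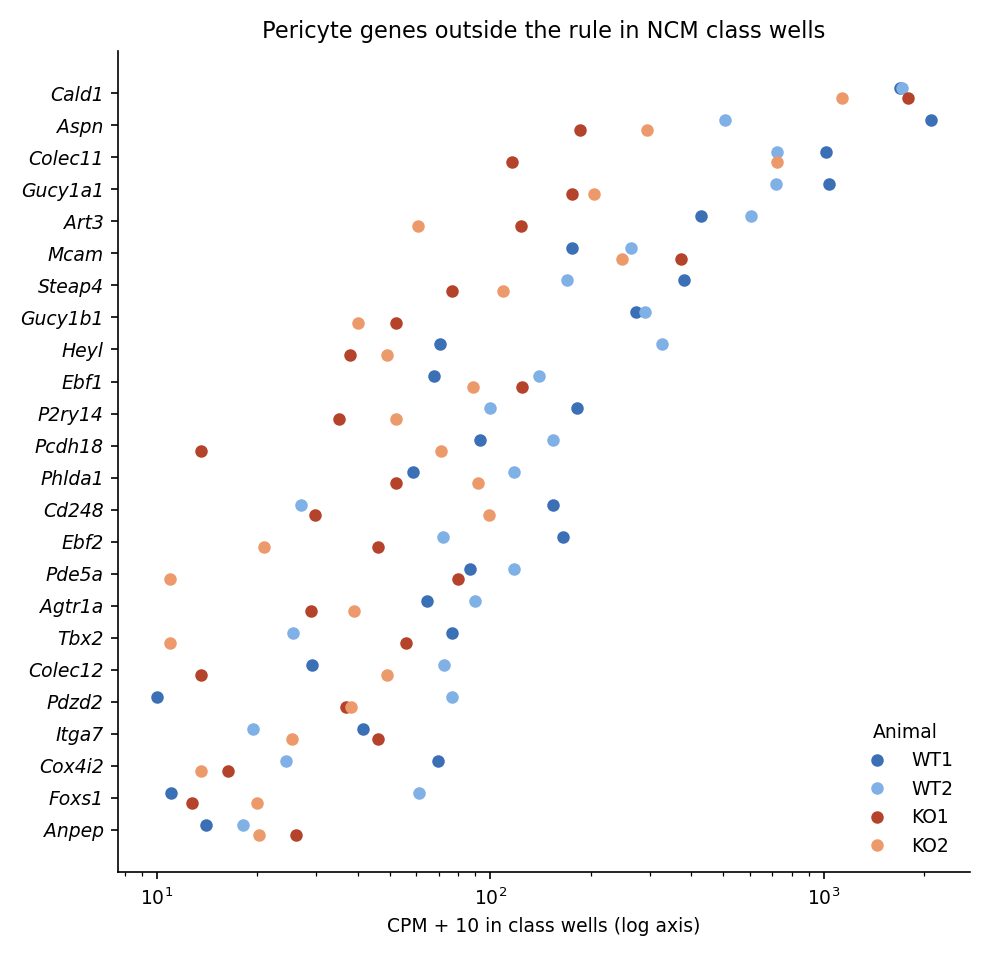
Level of 24 of the 27 tested pericyte genes outside the rule in the NCM pericyte wells, in CPM + 10 on a log axis, 1 point per animal. The KO points of Gucy1a1, Gucy1b1, Art3 and Aspn lie left of their WT points, those of Mcam overlap with WT, and none of the differences passed the adjusted test.

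Contractile and vessel wall genes did not follow one direction. Acta2 differed by log2 0.70 (SE 0.511), Tpm2, a tropomyosin of smooth muscle, by log2 −1.69 (SE 0.708, unadjusted p = 0.0382), and Tagln, transgelin, stood at 56.8, 127, 228 and 274 CPM. Of the 14 contractile genes tested, 4 had both KO animals above both WT animals and 4 both below (28.6% each). Over all genes, 20.2% were above and 16% below, which holds beside each list here. Of 16 basement membrane genes, 8 were above (50%) and 2 below, among them Fn1, fibronectin, at 165, 179, 398 and 1539.6 CPM (log2 2.34, SE 0.761, unadjusted p = 0.0119) and Lama2, a laminin chain, at 252, 291, 45.8 and 76.7 CPM (log2 −2.32, SE 0.966, unadjusted p = 0.0380). Of 21 genes of angiopoietin, VEGF and TGF beta signalling, 9 were above (42.9%) and 2 below. That list holds endothelial receptors such as Kdr, the VEGF receptor, at 10.1, 152, 671 and 453 CPM (log2 2.63, SE 1.10, unadjusted p = 0.0378), beside the higher median endothelial share of KO wells, pericyte and other alike. Of 13 vasoactive and cyclic GMP genes, 7 were below (53.8%) and 0 above. This list shares members with the pericyte list, both cyclase subunits among them, so the 2 counts are not separate. The 7 include those subunits and Rgs2, an RGS protein that limits vasoconstrictor signals (343, 148, 72.8 and 38.5 CPM, log2 −2.38, SE 1.05, unadjusted p = 0.0474).

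Among the genes with the smallest p in the higher direction, Bpgm, the red cell enzyme that makes 2,3-bisphosphoglycerate, was 5.07, 1.95, 723 and 387 CPM. Tent5c, an RNA poly(A) polymerase, had 1 UMI in each WT animal and 346 and 391 in KO, a pooled ratio of 309.8 with a counting interval of 85.5 to 2563. These UMIs sat in the haemoglobin-rich wells. In KO pericyte wells under 10% haemoglobin, Bpgm was 1.63 and 16.5 CPM and Tent5c 0 and 1.84 CPM, whereas in those above it Bpgm was 1611 and 1248 CPM and Tent5c 694 and 412 CPM. Ube2l6, the E2 enzyme of ISG15 conjugation, was 21.3, 51.8, 787 and 623 CPM, and 107 and 139 CPM in the KO wells under 10% haemoglobin.

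Gm13341 and Gm13340, annotated as unprocessed pseudogenes, were higher in KO as well, Gm13341 at 954, 2191, 19529 and 8035 CPM and Gm13340 at 108, 290.0, 2069 and 1149 CPM. Both resemble mitochondrial genes, so their reads cannot be parted with certainty from the mitochondrial RNA that was higher on that chip. Single wells of KO2 held 78.5% of the Cytl1 UMIs and 93.5% of the Cmc2 UMIs. In KO1, Cytl1 had 247 UMIs in 9 wells and Cmc2 86 UMIs in 5 wells. Cytl1 was 2.03, 3.11, 222 and 330.2 CPM, and in KO1 8.14 CPM in wells under 10% haemoglobin and 485 CPM in those above it. In KO2 the order was reversed, at 470 CPM under that limit and 5.33 CPM above it. Cmc2 was 5.07, 5.45, 77.3 and 595 CPM.

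In the lower direction, Malat1, the nuclear long non-coding RNA, was 49862, 24942, 14452 and 17076 CPM in pericyte wells and 17372, 16035, 12658 and 13083 CPM in the other NCM wells (log2 −1.45, SE 0.318, unadjusted p = 0.00106, edgeR adjusted p = 0.679). Ifitm1, an interferon-induced membrane protein, was 805 and 1628 CPM in WT and 116 and 15.4 CPM in KO (log2 −4.45, SE 0.937, unadjusted p = 0.000814). Its UMIs lay in 9 of 15 and 27 of 35 WT wells and in 11 of 36 and 19 of 44 KO wells. The others were A430005L14Rik, the nuclear body gene Sp100, the GM-CSF receptor chain Csf2ra, Hikeshi, a carrier for nuclear import of HSP70, and Nostrin, which traffics endothelial nitric oxide synthase. Nostrin was 921, 262, 87.2 and 44.6 CPM (log2 −3.42, SE 0.887, unadjusted p = 0.00330), and 53.4% of the Sp100 UMIs came from 1 well.

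The levels of the deleted genes showed no clear loss in KO. Stk4 was 37.5 and 25.3 CPM in WT and 8.99 and 82.8 CPM in KO, from 37, 65, 10 and 258 UMIs, and Stk3 was 4.05, 130.4, 4.49 and 54.2 CPM. Their genotypes overlapped, with log2 differences of 0.41 (SE 1.69) and −1.27 (SE 1.89), and the sources used here do not give the deleted part, so reads outside it would check nothing. In the other NCM wells, from 762 to 4463 UMIs per gene and animal, Stk4 was 53.3, 48.0, 47.4 and 34.7 CPM, where KO1 and WT2 were nearly equal, and Stk3 was 23.7, 36.0, 30.1 and 24.6 CPM, where the genotypes overlapped. The sign of Stk4 turned under 5 other settings and that of Stk3 under 1. Of 11 Hippo core genes tested, 1 had both KO animals above both WT animals and 1 both below. Of 16 YAP and TAZ targets, 6 were above (37.5%) and 2 below, where all genes gave 20.2 and 16%, among them Ccn2, connective tissue growth factor, at 59.8, 100.0, 449 and 312 CPM (log2 2.06, SE 0.857, unadjusted p = 0.0377). None passed the adjusted test.

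Whether the genotype difference in pericyte wells departed from that in the other NCM wells was tested as the interaction of class and genotype, with the animal as a block. By edgeR, 20 of 15288 genes (0.131%) were called, 8 with a more positive and 12 with a more negative difference in pericyte wells. Abcc9, Rgs5 and Vtn were among the 12, but the rule selects on these genes, so they support nothing. One estimate of spread served both the pericyte sums of 15 to 44 wells and the far larger sums of the other wells. Without the haemoglobin-rich wells, a setting chosen after the data were seen, 7 genes were called, and without wells of at least 0.3% endothelial markers 5, on 9 to 20 wells an animal. Leaving out WT2, KO1 or KO2 gave 95, 4 and 3 genes. Genes outside the rule are named with their values in the closing section.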

How the data were processed

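PolyA RNA of single wells was sequenced from 4 chips, 2 per genotype, each with the wells of 1 cell fraction. The submitters' processing notes name mm10 and 3 programs, Subread 1.4.6-p1, featureCounts and STAR 2.5.2b, and the annotation release, strand setting and UMI collapsing are stated in none of the sources used here. The deposited tables hold UMI counts per gene and well, taken as such because each well's sum equalled the distinct gene and UMI pairs of the authors' per-well report in all 4315 wells. The animal and fraction of a well came from that report. Of 29245 gene columns, 28604 matched a symbol, and 70 spike-in columns (4.98e-05% of UMIs) were left out.

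Wells of at least 10000 UMIs and 300 genes were kept, counts were summed per animal over pericyte and over other wells, and 33 mitochondrial and 9 haemoglobin genes were left out of CPM and tests. Genotypes were compared with edgeR 4.0.16 (TMM, filterByExpr, quasi-likelihood test, Benjamini-Hochberg at 0.05; R 4.3.3, limma 3.58.1), and shares with exact permutation tests (scipy 1.17.1). DESeq2 1.42.0 was an alternative, as were other marker thresholds, filters and scalings, leaving out each animal, Scrublet calls (scanpy 1.11.5) and wells rich in endothelial or haemoglobin RNA; the last was added after the data were seen. The code was tested on simulated counts. The named genes are the rule genes, Stk4 and Stk3; outside the rule, the 20 with the highest smallest log2 ratio of pericyte to other wells over 4 animals (pseudocount 10 CPM, at least 50 CPM in every animal) and the 8 with the lowest largest ratio; per direction of KO against WT, the 8 with the smallest unadjusted p, a mean of at least 50 CPM, UMIs in 5 wells of each animal of the higher group and no overlap, used since fewer than 5 genes passed; up to 8 interaction genes a direction; and up to 6 members of each gene list. Some other list members were named after their values were seen. The members and lists were chosen with earlier results of these data known, and lists share members. A few genes are counted in the lists and calls but are not reported here by name. The animals' numbers did not pair them (r = −0.0021 over 8530 genes).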

Additional observations from a re-analysis of the deposited data

Results flagged for a closer look

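The genotype difference in pericyte wells departed from that in the other NCM wells for the genes below, by the edgeR test of the difference itself. Each value is the KO minus WT log2 difference in pericyte wells less that in the other wells, and CPM run in the order WT1, WT2, KO1, KO2. Genes with WT or KO wells at or near 0 have fitted values that are no bound.

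Mfap5, a microfibril protein of fibroblasts that is also in the fibroblast marker set, departed by log2 3.03 (SE 0.423, edgeR adjusted p = 6.28e-09). It stood at 110.5, 803, 974 and 2229 CPM in pericyte wells and 4499, 2881, 1498 and 3076 CPM in the other wells, so that WT1 alone was very low in pericyte wells.

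Also in the positive direction, Bpgm, a red cell enzyme, departed by log2 5.10 (SE 1.04, edgeR adjusted p = 0.00195) and Blvrb, biliverdin reductase B, by log2 5.12 (SE 1.09, edgeR adjusted p = 0.00403). Fam213a departed by log2 14.79 (SE 3.43, edgeR adjusted p = 0.0221), from 680 UMIs in KO against 0 in WT, at least 191-fold higher against a floor of 3 UMIs over the group. Its UMIs lay in 4 wells of KO1 and 5 of KO2, with 34.7% in 1 well. Isg20, an interferon-induced exonuclease, departed by log2 5.28 (SE 1.31, edgeR adjusted p = 0.0451) and Ube2l6 by log2 3.40 (SE 0.843, edgeR adjusted p = 0.0451). In KO1 and KO2 pericyte wells under 10% haemoglobin, Fam213a was 1.63 and 0.459 CPM, Isg20 174 and 28.9 CPM and Blvrb 350.1 and 264 CPM, against 832 and 280.3, 973 and 521 and 698 and 360.2 CPM in the wells above. Blvrb was 18.2 and 26.5 CPM in WT1 and WT2. Cytl1, a secreted cytokine-like protein, departed by log2 5.67 (SE 1.34, edgeR adjusted p = 0.0293), with 78.5% of its UMIs in 1 well of KO2.

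In the negative direction, Malat1 departed by log2 −0.80 (SE 0.139, edgeR adjusted p = 3.88e-05) and Ifitm1 by log2 −3.83 (SE 0.751, edgeR adjusted p = 0.000851). Fabp4 and Rbp7, lipid and retinol carriers of capillary endothelium, departed by log2 −1.71 (SE 0.338, edgeR adjusted p = 0.000984) and log2 −2.36 (SE 0.528, edgeR adjusted p = 0.0116). In pericyte wells under 0.3% endothelial markers, a set that holds Fabp4 itself, Fabp4 was 302, 434, 393 and 665 CPM and Rbp7 12.5, 9.79, 403 and 306 CPM, against 15537, 6927, 5492 and 2989 CPM and 5511, 2356, 1472 and 1977 CPM in the rest. Celf4, an RNA-binding protein, departed by log2 −9.20 (SE 2.20, edgeR adjusted p = 0.0357), with 89.2% of its UMIs in 1 well, and Sp100 by log2 −4.17 (SE 1.01, edgeR adjusted p = 0.0360), with 53.4% in 1 well. Also called were A430005L14Rik, at log2 −5.76, Csf2ra, at log2 −5.40, and Tmem216, with 523 UMIs in the WT pericyte wells and 0 in the KO pericyte wells, at least 207-fold lower in KO against a floor of 3 UMIs over the group. The Tmem216 UMIs lay in 3 wells of WT1 and 3 of WT2, with 50.9% in 1 well, so the fold bound rests on few wells.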

How the results depend on the processing

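Calls between genotypes, 0 by edgeR, became 185 with DESeq2, 37 with no filter on low counts, 2 with mitochondrial and haemoglobin genes left in and 2 without wells of at least 0.3% endothelial markers, where KO1 kept 9 wells, under the minimum of 10. They became 7 to 142 when 1 animal was left out. The 20 interaction calls became 69 with DESeq2, 11 with no filter, 13 at a marker threshold of 0.5%, 5 without endothelial-rich wells and 7 without haemoglobin-rich wells, and 3 to 95 when 1 animal was left out. The replicate block gave 0 calls between genotypes and so changed no call; it turned Stk4 to log2 −0.33. The KO minus WT difference in the share of wells, 1.89 points, was 0.159 at 0.5% and −2.37 under 30% mitochondrial UMIs (0.484 to 3.29 leaving out 1 animal). That of the mitochondrial share was 7.19 points in CM wells (24.2 to 43.2 leaving out 1 animal). That of the contractile share turned to −0.0101 in CM wells and −0.0213 by the median well (−0.00474 to 0.191 leaving out 1 animal, negative without KO2). That of endothelial markers turned to 0.278 at 0.5%, 0.0825 in CM wells and 0.265 by the median well (−0.311 to 0.125 leaving out 1 animal, positive without WT1, 0.0525, and without KO2). Signs also turned for Stk4 at 0.2% (−0.56) and 0.5% (−1.25), without haemoglobin-rich wells (−2.37) and without KO2 (−2.02; 1.30 without KO1), for Stk3 without WT2 (2.69; −4.10 without KO2), and in the interaction for Bpgm without haemoglobin-rich wells (−0.90), Cytl1 without endothelial-rich wells (−0.60) and Rbp7 at 0.5% (1.00) and without endothelial-rich wells (1.61). The causes were not tested. Library totals moved the median of all genes to 0.20. Gene tests in CM wells and in wells under 30% mitochondrial UMIs were not run, for lack of wells. Depth limits genes of few UMIs: 47.3% of gene and well pairs, for genes seen in 5 to 13 pericyte wells, were at 1 UMI.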
